A study of Pinus pinaster with 66 samples.

Results

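A set of 100 spots of a maritime pine (Pinus pinaster) cDNA microarray gave less signal in the needles of the current year than in older needles of the same month, in each of the 4 months from May to November in which current-year needles were hybridized. The set was taken by rank out of 5788 spots, among 8208 on the array: those with a value on every array used and not named in the text or tables of the study. For each of the 4 months, the mean of the older whorls was subtracted from the mean of the current-year whorl, and the 100 spots whose least negative difference over the 4 months lay lowest were kept. The current-year values from May to November are therefore given as a description, without a test, while the January and March arrays had no part in the choice and carry all the tests. The deposited table pairs no spot with a gene, so the spots are given by their array names and no function is assigned to any of them, nor could the tissue be checked against marker genes.

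Conifer needles stay on the branch for several years, and in pines each growing season adds a new whorl. New needles elongate, build cell walls and cuticle and gain photosynthetic capacity during their growing season, and then harden before winter. Older needles carry much of the photosynthesis of the tree and serve as a store of nitrogen that is drawn on when new shoots grow.

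The needles came from 6 field-grown trees, 20 to 25 years old, which were harvested repeatedly within a single year and whose RNA was pooled 2 by 2, so that each group of month and whorl has 3 pools. Whorl 0 is the growth of the current year, first harvested in May; Whorl 1 is that of the previous year, and Whorls 2 and 3 are the next older ones. On each array, Cy3-labelled RNA of 1 month and whorl was hybridized against a common Cy5-labelled pool of January RNA, and values above 0 were read as more transcript than in that pool. Whorls 1 to 3 were measured in January, March, May, July, September and November and Whorl 0 in the last 4 of these months, which makes 22 groups and 66 arrays. The study dropped replicate 2 of November Whorl 2 from its network analysis, and it was not used here either, so that this group has 2 arrays. An array had between 6519 and 8076 spots with a value, and the median of every array was 0. Precision is limited by how many arrays there are. The pools come from the same trees throughout, so p-values measure the spread between these pools only.

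From May to November, Whorl 0 stayed below the older needles of the same month, by less as the year went on. Averaged over the pools and taken as the median over the 100 spots, Whorl 0 minus the mean of Whorls 1 to 3 was -0.62 on the log2 scale in May, -0.42 in July and -0.28 in September, and it reached -0.25 in November. These medians correspond to levels in Whorl 0 that were lower by 1.54-fold in May and by 1.19-fold in November. The other 5688 spots had medians of -0.03, -0.04, -0.01 and -0.01 in the same months. In needles sampled whole, fewer cells of a type and less transcript per cell cannot be told apart. The most negative difference of a spot was -2.59 in May, -1.16 in July and -1.35 in September, against -0.83 in November.

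In May, 66 of the 100 spots had their widest gap between Whorl 0 and the older whorls, 20 had it in July, 10 in September, and only 4 in November. The gap was narrowest in November for 60 spots and in September for 25. In all, 89 spots had a wider gap in May than in November, and at 33 it narrowed at each step. The median ratio of the November gap to the May gap was 0.391. Because each spot had to lie below 0 in the worst of its months, a floor on the narrow gaps was set by the choice itself, while the wide gaps of May were not limited by it. A set chosen for high values in Whorl 0, described below, also had a wider median gap in May, 0.72, than in November, 0.52. No share over the other spots is given for these counts, and the narrowing is not read as particular to the 100 spots.

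**Figure D1:**
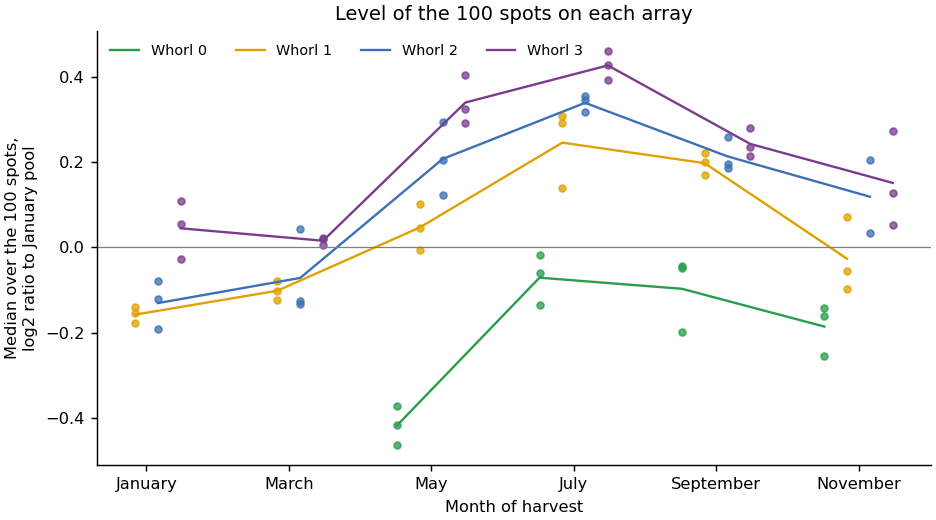
Median of the 100 spots on each array (points) and mean of the arrays of a group (lines), as log2 ratio to the January pool, by month of harvest and whorl. The 3 arrays of Whorl 0 in May lie between -0.46 and -0.37, below all arrays of the older whorls, and the mean of Whorl 3 lies above those of the other whorls in each of the 6 months.

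Against the January pool, the levels behind the gap differed by month. The median level of the 100 spots in Whorl 0 was -0.44 in May, -0.04 in July and -0.12 in September, and -0.17 at the November harvest. The median in Whorl 3 was 0.34, 0.40, 0.28 and 0.11 in the same months, with Whorls 1 and 2 in between, at 0.07 and 0.23 in May and at -0.03 and 0.09 in November. Whorl 0 lay below the January pool at 90 spots in May but at 52 in July and 59 in September, and at 75 by November. Only 33 spots had Whorl 0 below the pool in all 4 months and 42 had the mean of Whorls 1 to 3 above it in all 4, while 4 had both. A strict order by age, with the lowest mean in Whorl 0 and the highest in Whorl 3 in each of the 4 months, was shown by 20 spots.

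The arrays of the groups overlapped increasingly from spring to autumn. In May, all arrays of Whorl 0 lay below all arrays of Whorls 1 to 3 at 76 of the 100 spots, which held for 23.5% of the 5788 spots. This was so at 59 spots in July, with 9.8% over all. It held at 35 spots in September, with 2.38% over all, and at 21 in November, with 2.28%. These shares were fixed in part by the choice of the spots, and nothing is read from them.

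The spot at the top of the ranking, Q17K3, had values of -0.45, -0.47 and -0.70 in Whorl 0 in May, while the 9 arrays of the older whorls lay between 1.49 and 2.69. Its difference was -2.59 in May, -1.02 in July and -0.80 in September, and still -0.69 in November. In November, Whorl 0 had -0.44, -0.26 and 0.67 and Whorl 3 had 0.25, 0.72 and 1.01, so that the whorls overlapped. Replicate 3 was the highest array of Q17K3 in each whorl of that month.

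Spot Q7N22, next in rank, kept a gap of similar size, with differences of -0.71 in May, -0.93 in July and -0.64 in September, and then -0.78 in November. In Whorl 0 it had -0.02, -0.19 and -0.10 in May and 0.28, 0.33 and 0.75 in November. The 3 arrays of Whorl 3 had 0.79, 0.59 and 0.79 in May and 1.33, 1.41 and 1.42 in November. The level of Q7N22 was thus higher in November than in May in both whorls, and the arrays of Whorl 0 and Whorl 3 did not overlap in either month. At the lower end of the ranking, Q10P4 and Q6D16 were the last to be kept, with least negative differences of -0.139 and -0.138, and Q6C20 and Q9J12 the next to be left out, with -0.1376 and -0.1374. All 4 of these values were those of November.

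**Figure D2:**
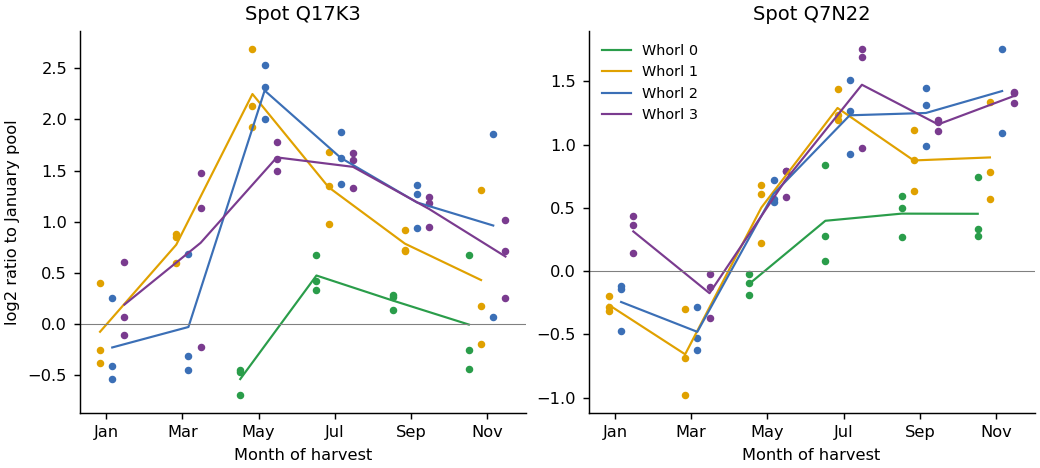
Values of Q17K3 and Q7N22 on each array (points) and group means (lines), as log2 ratio to the January pool, by month and whorl; Whorl 0 was measured from May on. Whorl 0 of Q17K3 lies between -0.70 and -0.45 in May, where the older whorls lie between 1.49 and 2.69, and Whorl 0 of Q7N22 lies below Whorl 3 in May and in November.

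As the choice rested on the same arrays, it was repeated with 1 replicate number left out and read on the arrays of that number. Of the 100 spots chosen without a replicate, between 85 and 100 had Whorl 0 below the older whorls in the arrays left out, over the 3 replicates and 4 months, while of all 5788 spots between 44.4% and 59.4% did. The median difference in the arrays left out was between -0.56 and -0.64 in May and between -0.15 and -0.32 in November. This check was added after the data were seen, and the arrays left out come from the same harvests. Spots needed a value on those arrays too. The sets chosen without replicate 1, 2 and 3 share 79, 79 and 72 spots with the 100 described here. The check describes those sets and is no test of the gap.

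In January, when the previous year's growth was the youngest on the branch, Whorl 1 was lower than the mean of Whorls 2 and 3 at 7 of the 100 spots and higher at 0 (limma, adjusted p under 0.05). Among the 7772 spots tested, 4.97% were called lower and 2.33% higher. Without adjustment, 21 of the 100 spots were lower and 0 higher at p under 0.05, against 12.5% and 8.74% of the spots tested. The median difference over the 100 spots was -0.09, and 77 lay below 0, against 48.8% of the other 5688 spots. The differences ran from -0.49 to 0.16. They are not set against the gaps of Whorl 0 here, since those chose the spots and were taken from Whorls 1 to 3. By limma without replicate 1, 0 of the 100 spots were called and 17 were lower at an unadjusted p under 0.05, against 0.978% and 8.11% of the spots tested. Without replicate 2, 4 were called lower, against 1.2%, and without replicate 3 also 4, against 5.7%, which is no larger a share than that over all spots. With the replicate number as a random block within month, 15 were called lower, against 8.17%.

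Spot Q15K24 had -0.43, -0.88 and -0.53 in Whorl 1 in January, against -0.10, -0.56 and 0.16 in Whorl 2 and 0.13, -0.43 and 0.09 in Whorl 3. The arrays overlapped, since replicate 2 was the lowest in each whorl, and the difference was -0.49 ± 0.14 (SE, n = 3 arrays of Whorl 1 and 6 of Whorls 2 and 3; limma, adjusted p = 0.0180). The adjusted p was 0.233 without replicate 1 and 0.136 without replicate 3. In the growing season, Q15K24 was among the spots with the widest gaps, with Whorl 0 at -1.61, -1.69 and -1.51 in May and the older whorls between -0.02 and 0.75.

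Spot Q2H15 differed by -0.41 ± 0.11 (SE; limma, adjusted p = 0.0164), with Whorl 3 apart from the younger whorls. It had 0.09, 0.16 and 0.11 in Whorl 1 and 0.11, -0.11 and 0.24 in Whorl 2, whose arrays overlapped, while Whorl 3 had 1.21, 0.85 and 0.89. Without replicate 1 the adjusted p was 0.362. Spot Q17A17, singled out here after its values were seen, was different in that Whorl 1 was apart from both older whorls. It had -0.12, -0.11 and -0.08 in Whorl 1, against 0.31, 0.14 and 0.30 in Whorl 2 and 0.34, 0.42 and 0.20 in Whorl 3, a difference of -0.38 ± 0.10 (SE; limma, adjusted p = 0.0100). In May, by contrast, Whorl 0 and Whorl 1 of Q17A17 overlapped, at 0.21, 0.26 and 0.08 in Whorl 0 and -0.01, 0.18 and 0.24 in Whorl 1. Without replicate 1, Q17A17 was not called in January, as 0 of the 100 spots were.

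The remaining 4 spots called in January, Q12M16, Q20M1, Q15D2 and Q7M12, named here after their values were seen, differed by between -0.39 and -0.34. These spots were not called without replicate 1 either. At the other end, Q18M4 and Q16D3 had the most positive differences, 0.16 ± 0.14 and 0.12 ± 0.13 (SE; limma, adjusted p = 0.569 and 0.651). The 3 arrays of Whorl 1 lay below all 6 arrays of Whorls 2 and 3 at 14 of the 100 spots, with 5.44% over the 5788 spots, and above them at 0, with 5.93%. Within the replicate numbers, the median January difference was -0.09 for replicate 1, -0.05 for replicate 2 and -0.20 for replicate 3, with 69, 61 and 84 spots below 0.

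In March, Whorl 1 was lower than the mean of Whorls 2 and 3 at 1 of the 100 spots and higher at 0 by limma, where 0.0513% of the 7792 spots tested were called lower and 0.321% higher. At an unadjusted p under 0.05, 13 of the 100 spots were lower and 5 higher, against 4.81% and 5.66% of the spots tested. The median difference was -0.05, and 68 spots lay below 0, against 46.6% of the other spots. Over all spots tested, 29 were called, and 51 with the replicate number as a fixed block. With the random block, 3 of the 100 spots were lower, against 0.59% of the spots tested.

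The spot called in March was Q7D24. It had -0.19, -0.63 and -0.39 in Whorl 1, against -0.40, -0.02 and 0.09 in Whorl 2 and 0.30, 0.41 and 0.31 in Whorl 3, a difference of -0.52 ± 0.12 (SE; limma, adjusted p = 0.0256). Whorls 1 and 2 overlapped, and the adjusted p was 0.445 without replicate 2 and 0.147 without replicate 3. The most positive differences were those of Q11N8, at 0.40 ± 0.16 (SE; limma, adjusted p = 0.30), and of Q17K3, at 0.39 ± 0.30 (SE; limma, adjusted p = 0.738). Spot Q11N8 had 0.31, 0.35 and 0.40 in Whorl 1, against -0.10, -0.06 and -0.12 in Whorl 2 and -0.17, 0.10 and 0.06 in Whorl 3, with Whorl 1 above all other arrays. In May it had the opposite order, with Whorl 0 at -0.21, -0.20 and -0.24 and the older whorls between 1.05 and 1.94.

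In March, all arrays of Whorl 1 lay below those of Whorls 2 and 3 at 4 of the 100 spots (1.81% over all) and above them at 3 (3.37% over all). By replicate number, the median difference was -0.04, 0.02 and -0.15 for replicates 1, 2 and 3, with 59, 46 and 76 spots below 0, so that the pools did not share a direction. The difference of Whorl 1 itself changed between January and March at 0 of the 100 spots in either direction (limma; at an unadjusted p under 0.05, 1 more negative and 7 more positive in March, against 4.47% and 6.44% of the spots tested), with 0.0773% of the 7762 spots tested called lower in March and 0.386% higher. Across the 100 spots, the January and March differences had a Pearson r of 0.43. The spots are not independent replicates, and the pools of both months come from the same trees.

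**Figure D3:**
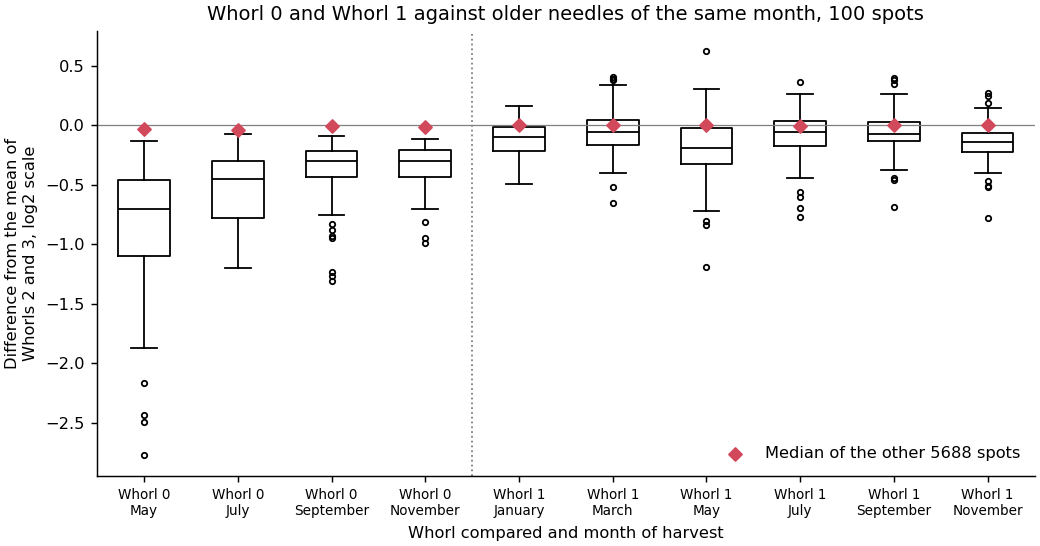
Differences of the 100 spots from the mean of Whorls 2 and 3 of the same month, on the log2 scale, for Whorl 0 in 4 months (left of the dotted line) and Whorl 1 in 6 months (right); boxes give the quartiles, whiskers reach 1.5 times the box height at most, circles are spots beyond them, and diamonds give the median of the other 5688 spots. The median is -0.70 for Whorl 0 in May and -0.30 in November, and lies between -0.19 and -0.05 for Whorl 1.

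Measured from the mean of Whorls 2 and 3, which is the same baseline for both young whorls, the median over the 100 spots was -0.70 for Whorl 0 in May, -0.45 in July and -0.30 in both September and November. The corresponding medians for Whorl 1 were -0.09 in January, -0.05 in March, -0.19 in May, -0.06 in July and -0.07 in September, with -0.14 for November. Whorl 1 lay below the mean of Whorls 2 and 3 at most of the spots in every month. The number was between 67 spots in July and 85 in November, against 54.3% and 48.3% of the other spots. Against Whorl 2 alone, however, Whorl 1 was lower at only 50 of the 100 spots in January and 47 in March. Of the other spots, 46.8% and 47.1% were lower. The arrays from May to November chose the spots partly on Whorls 1 to 3 as a group, and their order within that group was not used. The medians of Whorl 0 were made low in part by that choice. Their width beside those of Whorl 1 is therefore not read as a result. The November Whorl 0 and the January Whorl 1 are growth of different years, harvested at opposite ends of 1 calendar year, and no needles were followed from the gap of November into that of January.

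In January and March together, 57 of the 100 spots had Whorl 1 below the mean of Whorls 2 and 3 in both months, against 27.0% of the other spots. In all 6 months, 30 spots did so, against 2.69% of the others. Across the 100 spots, the difference of Whorl 0 and the January difference of Whorl 1 had a Pearson r of 0.06 for May, 0.33 for July, 0.22 for September and 0.32 for November. These are correlations across spots that share arrays, and no p is given for them.

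A step also lay between Whorl 2 and Whorl 3. In January, Whorl 2 was below Whorl 3 by a median of -0.17 over the 100 spots, with 85 below 0, against 51.6% of the other spots. Whorl 1 minus Whorl 2 had a median of -0.001, with 50 spots below 0 and 50 above, against 46.8% of the other spots below 0. Whorl 1 minus Whorl 3 had a median of -0.18, with 87 below 0, against 49.9% of the other spots. The differences between Whorl 1 and Whorl 2 ran from -0.46 to 0.53, so that a median near 0 stood for spots that went both ways.

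Whorl 3 had the highest mean of the 3 whorls at 78 of the 100 spots in January and at 61 in March, against 31.0% and 32.7% of the other spots. Whorl 1 had the highest mean at 9 spots in January and 23 in March, against 37.5% and 34.6% of the other spots. In March, Whorl 1 minus Whorl 2 had a median of 0.02. Whorl 2 minus Whorl 3 had -0.11, with 78 spots below 0, against 47.8% of the other spots. The medians of this difference lay closer to 0 later in the year, at -0.08 in May, -0.07 in July and -0.01 in September, and at 0.01 in November.

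**Figure D4:**
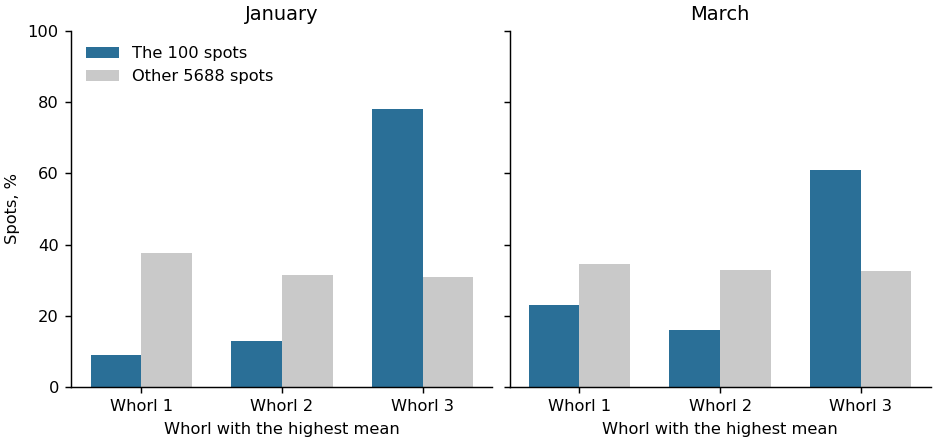
Share of spots with the highest group mean in Whorl 1, 2 or 3 in January (left) and March (right), in percent, for the 100 spots (blue) and the other 5688 spots (grey). Whorl 3 has the highest mean at 78 of the 100 spots in January and at 61 in March, against 31.0% and 32.7% of the other spots.

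By limma, Whorl 2 was lower than Whorl 3 at 5 of the 100 spots in January and higher at 0, with 1.13% of the 7776 spots tested called lower and 2.26% higher. At an unadjusted p under 0.05, 27 of the 100 were lower and 1 higher, against 8.18% and 8.27%. In March the numbers were 5 lower and 0 higher, with 3.13% of 7793 spots called lower and 2.76% higher. Without adjustment, 11 were lower and 3 higher in March, against 9.38% and 9.09%, so that the share lower was close to that over all spots. The background here includes spots that lack values on some arrays, as none of the 100 do. Fitting only complete spots gave 4 called lower and 0 higher in March, against 1.44% and 1.61%. Unadjusted, 12 were then lower and 4 higher, against 7.37% and 8.28%. Leaving out a replicate in January gave between 2 and 4 spots called lower, against between 0.155% and 0.531% of the spots tested. In March, 3 were called lower without replicate 1, against 1.14%, and 2 without replicate 3, against 2.72%. Without replicate 2, 0 were called in March, and 8 were lower and 3 higher at an unadjusted p under 0.05, against 5.67% and 5.51%. The random block gave 13 spots lower in January, against 3.05%, and 8 lower and 1 higher in March, against 5.33% and 4.7%.

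All arrays of Whorl 2 lay below all arrays of Whorl 3 at 30 of the 100 spots in January, with 12% over the 5788 spots, and above them at 0, with 10%. In March this was so at 19 spots, with 11.6% over all, and above at 4, with 13.5%. The median of Whorl 2 minus Whorl 3 in January was -0.19, -0.15 and -0.19 for replicates 1, 2 and 3. In March it was -0.21 and -0.15 for replicates 1 and 2 but 0.03 for replicate 3, with 48 spots below 0, so that replicate 3 did not share the direction of the others.

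Spot Q2H15, described above, had the widest called step in January, at -0.90 ± 0.13 (SE, n = 3 each; limma, adjusted p = 5.6e-05). Spot Q7D24 followed with -0.29, -0.56 and -0.54 in Whorl 2, against 0.36, -0.08 and 0.39 in Whorl 3, a difference of -0.68 ± 0.13 (SE; limma, adjusted p = 0.00185), which did not pass without replicate 3 (adjusted p = 0.0912). The arrays of these whorls did not overlap at either spot.

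In March, Q3A22 had -0.22, -0.12 and 0.24 in Whorl 2, against 0.66, 0.61 and 0.46 in Whorl 3, and differed by -0.61 ± 0.13 (SE, n = 3 each; limma, adjusted p = 0.00224). Spot Q2O18 had -0.45, -0.32 and -0.22 in Whorl 2, against 0.09, 0.26 and 0.28 in Whorl 3, and differed by -0.54 ± 0.13 (SE; limma, adjusted p = 0.00746). At both spots, Whorl 3 was clear of the younger whorls, and the arrays of Whorl 1 overlapped those of Whorl 2. Without replicate 2, the adjusted p was 0.222 for Q3A22 and 0.266 for Q2O18, and without replicate 1 it was 0.0768 for Q3A22. Q7D24, Q3A22 and Q2O18 were called lower in Whorl 2 in both months, which makes 3 spots of the 5 called in each. The share of all spots called lower in both months is not given, so nothing is read from this count.

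**Figure D5:**
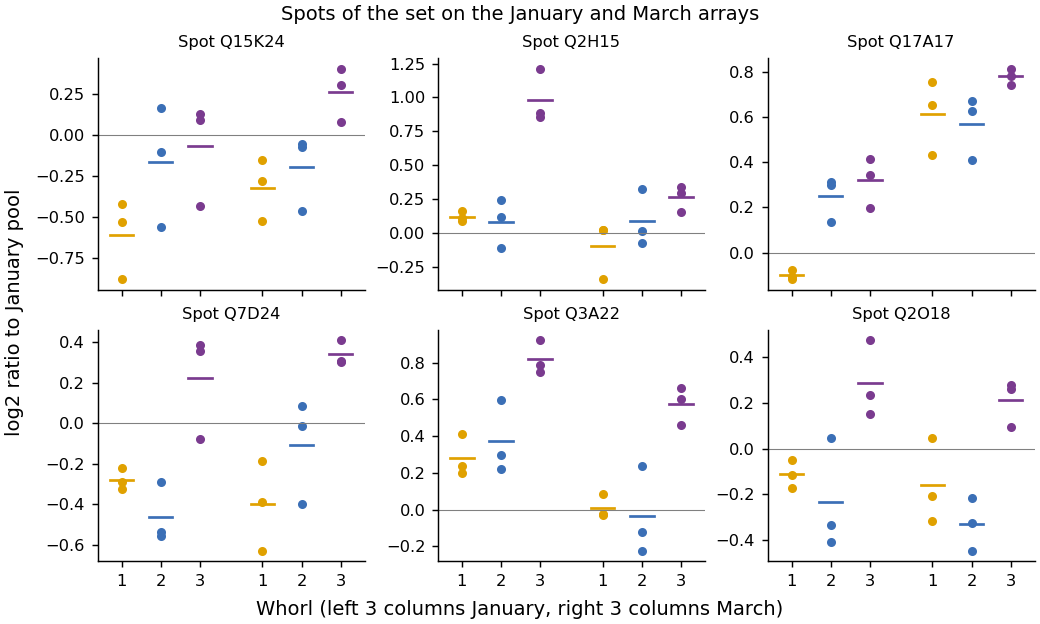
Values of 6 of the 100 spots on each January and March array (points) with group means (bars), as log2 ratio to the January pool, by whorl. Whorl 1 of Q17A17 is apart from both older whorls in January, where its arrays lie between -0.12 and -0.08, whereas at Q2H15 in January and at Q3A22 and Q2O18 in March Whorl 3 is apart from both younger whorls.

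Between January and March, the older needles had no common direction at these spots. Averaged over Whorls 1 to 3, March was lower than January at 12 of the 100 spots and higher at 22 (limma, adjusted p under 0.05), where 16.1% of the 7762 spots tested were lower and 15.5% higher. The median change was 0.004, with 49 spots below 0. Without replicate 1, 7 were lower and 13 higher, against 9.76% and 7.87% of the spots tested, and without replicate 2, 9 were lower and 12 higher, against 9.83% and 7.9%. The 9 arrays of a month come from Whorls 1 to 3 of the same trees, and the main fit treats them as independent. With the replicate number as a random block within month, 9 of the 100 spots were lower and 17 higher, against 11.4% and 10.6%.

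Spot Q7D6 fell most in March. It had -1.45, -1.02 and -1.37 in Whorl 1, -1.34, -1.29 and -1.44 in Whorl 2 and -1.01, -0.75 and -0.73 in Whorl 3 in March, while the 9 January arrays lay between -0.64 and 0.17. The difference was -0.95 ± 0.11 (SE, n = 9 arrays each, from 3 pools of trees; limma, adjusted p = 2.8e-09), and no array of March reached the January range. In November the spot stood far above the pool in every whorl, at 1.53, 1.75 and 1.92 in Whorl 0 and between 1.72 and 2.40 in the older whorls. Spot Q14M21 was lower in March by -0.48 ± 0.11 (SE; limma, adjusted p = 8.7e-04).

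Spot Q5N12 was higher in March by 0.63 ± 0.12 (SE, n = 9 arrays each, from 3 pools of trees; limma, adjusted p = 6.2e-05). It had 0.78, 0.90 and 0.75 in Whorl 1 in March, against -0.13, -0.08 and 0.02 in January. Spot Q8C2 had a larger difference, 0.67 ± 0.26 (SE; limma, adjusted p = 0.0412), on widely scattered arrays. Its Whorl 1 values were 2.14, 1.36 and 1.97 in March, against 0.30, 0.27 and 2.54 in January. Without replicate 2, its adjusted p was 0.605 and its difference 0.25, and without replicate 1 the adjusted p was 0.177.

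The 100 spots did not form a single tight profile. Over the 18 January and March arrays, the mean Pearson r between a pair of the spots was 0.165, with 69.1% of 4950 pairs above 0, against a mean of 0.00889 and 50.7% among other spots. With the group means removed, so that only the scatter between pools was left, the mean r was 0.120 among the 100 spots, against 0.00952. Spots correlated with the mean of the 100 between -0.43, for Q9A18, and 0.85, for Q20I16, both named here after their values were seen. Outside the set, the spots most alike to its mean were Q22J3 and Q10D6, each with a Pearson r of 0.84 over the 18 arrays, and these stood at ranks 5233 and 3817 of the same ranking. The members of a set that correlate with their own mean are part of it, so the values inside and outside the set are not on the same footing.

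Chosen by the mirrored rule, the 100 spots highest in Whorl 0 were called higher in January Whorl 1 at 37 spots and lower at 0, with a median difference of 0.25, and in March at 6 spots, with a median of 0.22. The set low in Whorl 0 had 7 and 1 calls in its own direction, with medians of -0.09 and -0.05. Among all spots tested, 2.33% were called higher and 4.97% lower in January, and 0.321% higher and 0.0513% lower in March. Both sets were chosen on their gaps, which were closer in size in May than later. For Whorl 0 minus Whorls 1 to 3, the mirrored set had a May median of 0.72, against -0.62. Its July median was 0.62, against -0.42. The medians for September and November were 0.51 and 0.52, against -0.28 and -0.25. Whether the size of the gap bears on the counts was not tested. All 5 of the flavonoid synthesis genes that the study took from these arrays as whorl-related were called higher in January Whorl 1, with a median of 1.41, and 2 in March. All 10 genes of its whorl-related list, which include these 5, were called in January and 4 in March. Since the study chose that list on the same arrays, its counts are not independent evidence, and the sets were not tested against each other.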

How the data were processed

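The deposited values are log ratios, treated here as log2, that the authors made from scans of a cDNA array with duplicated spots and normalized between arrays with BABAR, a package for designs with a common reference. They run from -4.49 to 6.41, and their log base is not given in the sources used here. The direction was taken from the dyes in the methods. The lowest correlation between a pair of arrays was -0.291. The reference is labelled January by source and harvest date, although its month field names another month in most samples. Values were used as deposited, without raw intensities.

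The tests were made in limma 3.58.1 (R 4.3.3) on 65 arrays, fitting 1 mean for each of 22 groups and moderating the variances. A spot was called at a Benjamini-Hochberg adjusted p under 0.05 over all spots tested. Spots needed a value on 0.5 of the arrays and in every group compared. The contrasts were Whorl 1 minus the mean of Whorls 2 and 3, Whorl 2 minus Whorl 3, the January to March change of the Whorl 1 difference, and March minus January over Whorls 1 to 3. Descriptions were computed with pandas 2.3.3 and numpy 2.4.6 in Python 3.11.15. Data were simulated for January Whorl 1 with the spread of 5823 spots and independent noise on each array. There, 69% of the spots changed by 0.3 and 90% of those changed by 0.6 were found, with 2 false calls.

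A legend of the paper ties a replicate number to an individual, and the same trees were sampled throughout, so equal replicate numbers were read as a shared pool. As a check, the deviations of arrays from their group means were correlated across spots. The mean r was 0.279 for pairs of equal number in a month (87 pairs, from -0.29 to 0.87) and -0.139 for unequal numbers. Deviations from a group mean cancel within the group, so the value for unequal numbers largely follows from that for equal numbers. Only arrays of the same month were paired, so the check cannot show that a number marks the same pool across months. The labels and the values used here give no slide, scan or hybridization batch.

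The members, lists, tests and alternatives were chosen with earlier results of these data known. Spots were named by rule, apart from those said to be named after their values were seen: the 2 leading members, the 2 on each side of the limit, and in each tested comparison at most the 2 most negative and the 2 most positive called members (in the Whorl 1 comparisons, the 2 most positive members whether called or not), and the 2 spots most alike to the mean of the set. The alternatives were quantile normalization, stricter and looser filters, the arrays of the compared groups alone, all 66 arrays, each replicate left out, the replicate number as a fixed or a random block, a trended and robust prior variance, and group medians in place of means in the choice.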

Additional observations from a re-analysis of the deposited data

How the results depend on the processing

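In the comparisons between whorls, medians of the set kept their sign under the 11 alternatives. The median change in March against January lay between -0.04 and 0.02, on both sides of 0. Counts of called spots moved. Of all spots, 567 were called for January Whorl 1, 29 for March Whorl 1, 36 for the change of the Whorl 1 difference, 264 for January Whorl 2 against Whorl 3, 459 for the same in March and 2450 for March against January. With the fit limited to the compared groups, which leaves fewer arrays for the variance, these were 241, 46, 0, 2 and 169 for the comparisons between whorls, with 3 members lower in January Whorl 1, 0 lower and 1 higher (Q11N8, adjusted p = 0.0379) in March Whorl 1, and 0 and 2 lower in Whorl 2 against Whorl 3 in January and March. Of all spots tested, 1.47% were lower in January Whorl 1, and 0.0898% lower and 0.501% higher in March Whorl 1. For Whorl 2 against Whorl 3, 0.0129% were lower in January and 1.44% in March. Quantile normalization gave 75 for March Whorl 1 (21 lower and 54 higher, against 4 and 25), 70 for the change (19 and 51, against 6 and 30) and 609 for January Whorl 2 against Whorl 3 (293 and 316, against 88 and 176), with 12 members lower in January Whorl 1, 2 in March Whorl 1 and 15 in January Whorl 2. These members stood against 4.71%, 0.27% and 3.77% of all spots tested. With only spots that have a value on every array, which are fewer, 17 were called for the change, 133 for January Whorl 2 and 178 for March Whorl 2. With all 66 arrays, 18 were called for March Whorl 1 and 21 for the change; the cause was not tested. With a fixed replicate block over all months, 51 were called for March Whorl 1, and no other count moved by more than 1.5 times. With a random replicate block within month (correlation 0.221), 993, 145, 127, 558 and 781 were called for the comparisons between whorls, with 15 and 3 members lower in January and March Whorl 1, 13 and 8 in Whorl 2 against Whorl 3, and 1 higher in March Whorl 2. The shares called lower over all spots tested were 8.17%, 0.59%, 3.05% and 5.33%, and 4.7% were higher in March Whorl 2. Calls for March against January fell to 1711 in this setting, with 9 members lower and 17 higher, against 11.4% and 10.6%. Without 1 replicate, the ranges over all spots were 120 to 686 for January Whorl 1, 3 to 44 for March Whorl 1, 0 to 45 for the change, 41 to 127 and 64 to 402 for Whorl 2 against Whorl 3 in January and March, and 1364 to 2226 for March against January. For members they were 0 to 4 and 0 to 1 lower in January and March Whorl 1, 2 to 4 and 0 to 3 lower in Whorl 2, and 7 to 10 lower and 12 to 16 higher in March against January. Shares lower over all spots tested were 0.978% to 5.7% and 0.0129% to 0.168% in January and March Whorl 1. They were 0.155% to 0.531% and 0.412% to 2.72% in Whorl 2. In March against January, 9.76% to 14.9% were lower and 7.87% to 14% higher. With only the arrays compared, Q15K24, Q2H15 and Q7D24 (Whorl 1) did not pass, nor did Q2H15, Q7D24 and Q3A22 (Whorl 2), and Q8C2 failed under 5 of 11 alternatives. Of the 100 spots, 86 were chosen again after quantile normalization, 91 with all 66 arrays, 78 by group medians, and 79, 79 and 72 without replicate 1, 2 and 3.

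In the simulated data, 69% of the spots changed by 0.3 were found, so that smaller differences could be missed with 3 pools a group. The simulated arrays had no scatter shared by replicate number, and no change smaller than 0.3 was simulated. The rates found there may therefore not hold for the real arrays.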

Other observations

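The array left out, November Whorl 2 replicate 2, had a median of 0.21 over the 100 spots, and 87 of them lay above the November mean of Whorl 0. The arrays kept in that group had 0.03 and 0.20, with 87 and 94 spots above that mean. Since the spots were chosen for a low mean in Whorl 0, these counts were fixed in part by the choice, and nothing is read from them.

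The number that follows the letter Q in the names of the spots runs up to 22. The 100 spots carry 21 of these numbers, with 10 spots under the number 15, 9 under 20 and 0 of the 45 spots under 22. Whether spots close together in this naming hold related clones is not known from the files used here.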
